A study of Arabidopsis thaliana with 18 samples.

Results

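The aquaporin gene family of Arabidopsis thaliana was described in dark-grown seedlings, as 35 genes of the 32833 genes in each table. The members were taken by gene identifier and fall into 5 PIP1, 8 PIP2, 10 TIP, 9 NIP and 3 SIP genes. Total RNA was taken from seedlings kept for 3 days in darkness at 21 °C on half-strength Murashige and Skoog medium, without sucrose or with 1% sucrose. The 6 groups held 3 libraries each: wild-type Col-0, gnc gnl and GNLox, each on both media and all in the Col-0 background. GNC and GNL are related B-GATA transcription factors. The submitters call gnc gnl a double mutant and GNLox a transgenic line, which is read here from its name as overexpressing GNL. The promoter that drives the transgene and the number of independent lines were not given in the labels. Nothing states that the 3 libraries of a group came from separate cultures, so p-values measure the spread between these libraries, which may be technical.

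Aquaporins are membrane channels that let water, and in some members small uncharged solutes such as urea, ammonia, hydrogen peroxide or boric acid, pass down their gradients. Plasma membrane intrinsic proteins (PIP1 and PIP2) sit mainly in the plasma membrane, where PIP2 proteins are efficient water channels and many PIP1 proteins need a PIP2 partner to reach it. Tonoplast intrinsic proteins (TIP) sit mainly in the vacuolar membrane, nodulin 26-like proteins (NIP) carry boric acid and other solutes, and small basic intrinsic proteins (SIP) are found in the endoplasmic reticulum. A dark-grown seedling lengthens its hypocotyl by filling vacuoles of expanding cells with water.

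Total gene reads per library ranged from 27362791 to 41942516, and reads of ribosomal RNA genes from 1.00% to 25.4% of them. Replicate 3 of GNLox without sucrose was highest both in ribosomal RNA and in plastid reads, at 23.3% plastid. GNL, the gene overexpressed in GNLox, was at 1739.7 to 3853 in the 6 GNLox libraries and at 0.595 to 13.4 in the 6 Col-0 libraries. GNC was at 4.75 to 5.17 in gnc gnl without sucrose and at 9.69 to 19.8 in Col-0. With sucrose GNC was at 2.94 to 3.58 in gnc gnl and at 6.74 to 10.4 in Col-0. GNL reads were still counted in gnc gnl, at 4.36 to 6.82 without sucrose and 1.94 to 3.26 with it, against 3.59 to 13.4 and 0.595 to 1.46 in Col-0. With sucrose the GNL libraries of gnc gnl lay above those of Col-0, which goes against the label, though the difference did not pass (log2 1.09 ± 0.43, adjusted p = 0.252). The name gnc gnl below stands for the libraries labelled so. Levels here and below are RPKM recomputed from the total gene reads after TMM scaling, that is, reads per kilobase of exon relative to a library total corrected for composition, so that genes can be compared per length.

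The members called in all 3 sucrose comparisons below with a log2 difference of at least 1 in size, and the member called in gnc gnl against Col-0, are shown here by the 250 bases that end just before the annotated gene start. They were picked after their values were seen. In the order of the sequences, the genes are AT5G60660, AT2G16850, AT2G25810, AT1G17810 and AT4G19030, and the windows lie at chr5:24377207-24377456 (minus strand), chr2:7301084-7301333 (plus), chr2:11012249-11012498 (plus), chr1:6129775-6130024 (plus) and chr4:10423509-10423758 (minus), in the RefSeq copy of TAIR10.1, and no other annotated gene overlaps them. Each is written 5′ to 3′ along the gene's strand, and capitals mark the letters GATA (the core read by GATA factors), CACGTG (the G-box) and CATGCA (the RY element of seed genes), each on either strand, so that GATA may appear as TATC and CATGCA as TGCATG.
PIP2;4: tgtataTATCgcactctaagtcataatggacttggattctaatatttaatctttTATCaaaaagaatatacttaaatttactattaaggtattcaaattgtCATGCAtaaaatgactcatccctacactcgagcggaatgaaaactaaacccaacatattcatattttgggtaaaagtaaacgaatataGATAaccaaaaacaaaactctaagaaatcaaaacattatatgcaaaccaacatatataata
PIP2;8: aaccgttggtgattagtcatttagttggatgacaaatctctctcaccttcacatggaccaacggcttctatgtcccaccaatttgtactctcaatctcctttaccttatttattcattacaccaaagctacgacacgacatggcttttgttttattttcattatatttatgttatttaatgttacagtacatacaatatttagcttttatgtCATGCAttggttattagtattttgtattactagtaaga
TIP4;1: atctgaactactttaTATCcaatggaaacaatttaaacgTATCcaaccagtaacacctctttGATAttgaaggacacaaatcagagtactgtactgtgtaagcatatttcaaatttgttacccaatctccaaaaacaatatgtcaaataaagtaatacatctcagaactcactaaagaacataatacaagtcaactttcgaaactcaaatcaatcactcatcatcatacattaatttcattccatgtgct
TIP3;2: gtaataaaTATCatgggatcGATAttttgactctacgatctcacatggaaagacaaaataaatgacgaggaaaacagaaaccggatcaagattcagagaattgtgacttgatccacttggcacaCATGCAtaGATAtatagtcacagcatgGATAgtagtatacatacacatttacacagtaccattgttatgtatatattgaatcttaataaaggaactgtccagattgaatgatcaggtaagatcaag
NIP1;1: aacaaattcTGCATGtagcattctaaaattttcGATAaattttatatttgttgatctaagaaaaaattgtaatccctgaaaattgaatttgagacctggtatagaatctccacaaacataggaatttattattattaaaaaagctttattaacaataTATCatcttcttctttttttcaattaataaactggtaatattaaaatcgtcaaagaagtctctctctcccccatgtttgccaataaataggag

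GATA was present in 4 of these 5 windows and absent from the PIP2;8 window. Among all 27419 protein-coding nuclear genes, 87.0% of windows of this length hold GATA, and 30 of the 35 members do (85.7%), so its presence is close to the background. The median number of copies was 3 in the members' windows and 2 in all windows, a difference that was not tested. CATGCA was found in the windows of 10 members (28.6%) and in 8.4% of all windows. Of the 5 printed windows, only that of TIP4;1 lacks it. No member's window holds CACGTG, which 6.5% of all windows hold. A match describes the letters and is not a binding site.

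The family's RNA was dominated by few members. A mean level over 100 was reached by 13 of the 35 genes, 8 lay between 10 and 100, 8 between 1 and 10, and 6 at or under 1. TIP1;2, a vacuolar water channel also permeable to urea and hydrogen peroxide, was the highest in all 6 groups. Its 3 libraries read 6326, 4809 and 4902 in Col-0 without sucrose and 4986, 4569 and 4961 with sucrose. In gnc gnl they read 3244, 4048 and 4872 without and 3442, 3484 and 4099 with sucrose. In GNLox they read 6271, 4804 and 4153 without and 5080.1, 3400.0 and 4779 with sucrose. The ranges of the media overlapped in each genotype, and the gene passed no test.

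Among the PIP1 genes PIP1;2 was highest, and among the PIP2 genes PIP2;1. Both encode abundant plasma membrane water channels. The former was at 1320.2, 1106 and 1012 in Col-0 without sucrose and at 1093, 1027 and 1417 with it. It was at 937, 944 and 1110.5 in gnc gnl without sucrose and at 896, 983 and 897 with it. It was at 1552, 1124 and 1022 in GNLox without sucrose and at 1243, 1059.8 and 1259 with it. The media overlapped in every genotype. The latter was at 1227, 976 and 872 in Col-0 without sucrose and at 878, 859 and 1378 with it. It was at 741, 764 and 946 in gnc gnl without sucrose and at 684, 790.5 and 729 with it. It was at 1339, 911 and 743 in GNLox without sucrose and at 933, 822 and 1009.8 with it. Here too the media overlapped within each genotype, and neither gene passed a test.

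The NIP and SIP genes were far lower per length. By the mean over all 18 libraries the highest NIP was NIP1;2, an arsenite-permeable channel, but the boric acid channel NIP5;1 was higher with sucrose in gnc gnl (12.8 against 10.9) and in GNLox (15.6 against 9.49). The former was at 13.6, 13.7 and 12.8 in Col-0 without sucrose and 11.9, 12.6 and 12.6 with it. It was at 13.4, 15.6 and 13.2 in gnc gnl without and 10.5, 11.1 and 11.1 with sucrose. It was at 11.8, 14.5 and 11.4 in GNLox without and 9.30, 8.91 and 10.3 with sucrose. Its sucrose libraries lay below the others within each genotype, and the fall was called in gnc gnl and in GNLox. The highest SIP was SIP1;1, a channel of the endoplasmic reticulum, at 41.8, 35.8 and 35.1 in Col-0 without and 43.4, 44.1 and 46.5 with sucrose. It was at 34.2, 36.9 and 40.1 in gnc gnl without and 39.0, 39.0 and 38.5 with sucrose. It was at 48.2, 39.8 and 35.3 in GNLox without and 50.6, 38.7 and 48.6 with sucrose. Its media did not overlap in Col-0 and overlapped in the other genotypes. It passed no test in the main fit. In Col-0 it was called with the compared groups only (adjusted p = 0.0413) and without replicate 1 on the medium without sucrose (adjusted p = 0.0411). In GNLox it was called without replicate 1 on that medium (adjusted p = 0.0400) or replicate 2 with sucrose (adjusted p = 0.0494).

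At the bottom of the order, 5 members had too few reads to be tested. NIP4;1 had no read in any library, TIP1;3 had 2 reads over all 18 libraries and TIP5;1 had 4. Each is known from pollen. NIP4;2, also a pollen gene, had 14 reads in Col-0 with sucrose, 13 in gnc gnl with sucrose, 1 in gnc gnl without sucrose and none in the other groups. NIP7;1, a boric acid channel of anthers, had 116 reads in all. A count of 0 in a library allows up to 3 reads, so these genes were not detectable or nearly so at this depth, and intervals of this kind cover counting error only.

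**Figure D1:**
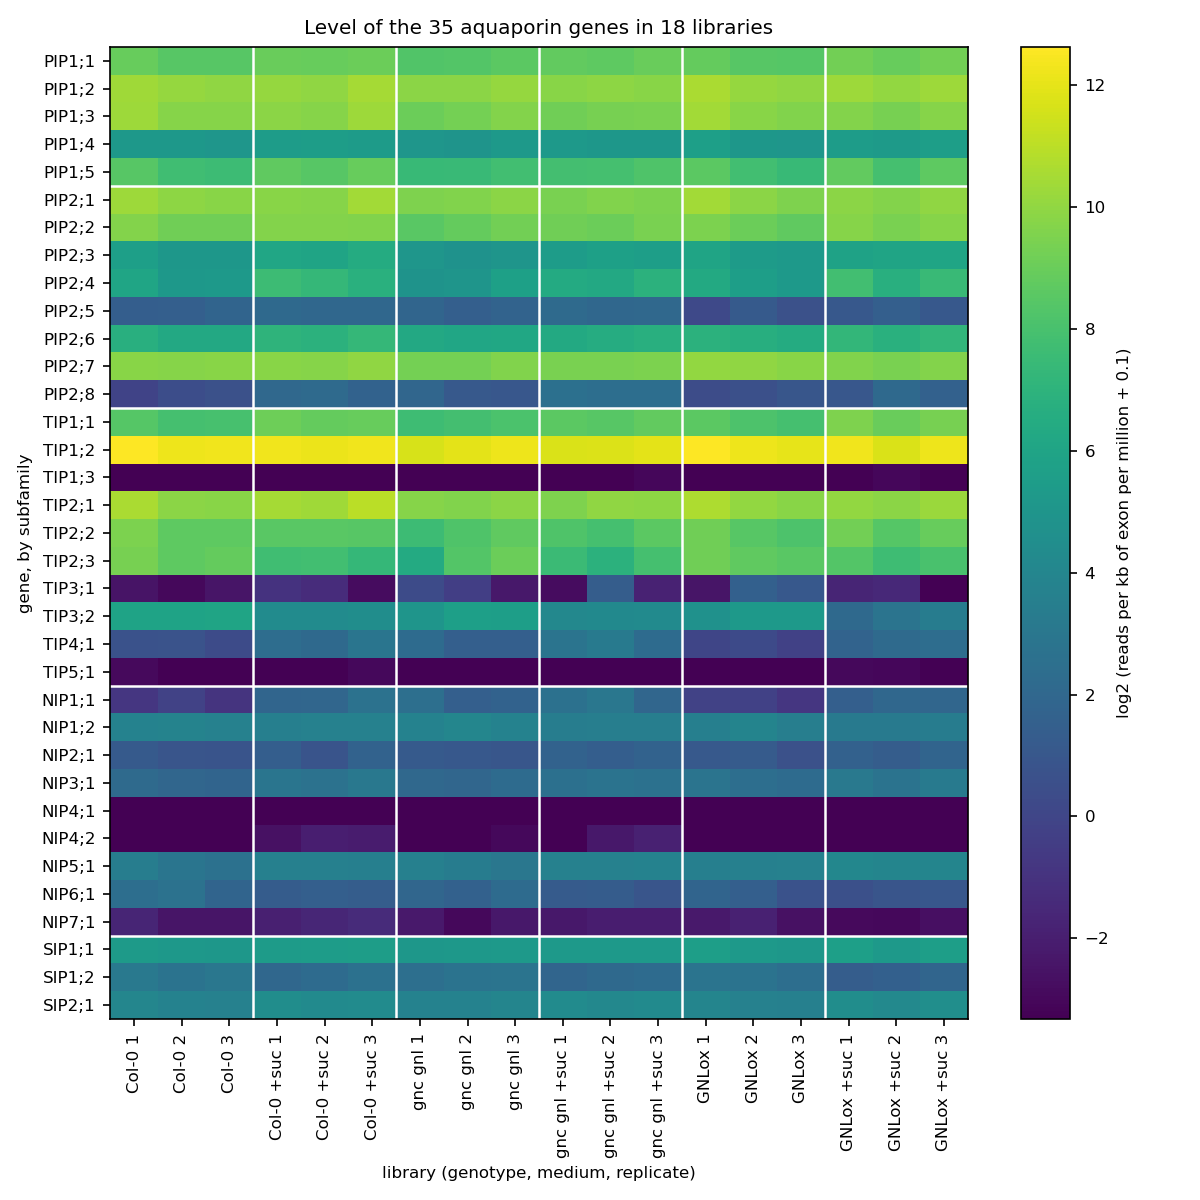
Level of each of the 35 aquaporin genes (rows, by subfamily) in each of the 18 libraries (columns), as log2 of TMM-scaled RPKM plus 0.1. The highest TIP gene, which reached 6326, is the brightest row, and the rows of the pollen genes are at or near 0.

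Summed over each subfamily, the TIP genes made up more than either PIP group in every library. In Col-0 without sucrose the TIP share of the family's summed level was 57.9% ± 1.06 (SD, n = 3), the PIP1 share 20.9% ± 0.473, the PIP2 share 20.4% ± 1.10, the SIP share 0.445% ± 0.0345 and the NIP share 0.245% ± 0.0293. With sucrose the TIP share in Col-0 was 54.0% ± 1.91 and the PIP2 share 22.5% ± 0.658, and neither share overlapped between the media. In gnc gnl the TIP share was 56.5% ± 2.32 without and 53.9% ± 1.35 with sucrose, and in GNLox 56.3% ± 0.171 and 53.5% ± 1.98. The libraries of the 2 media overlapped in gnc gnl and did not overlap in GNLox. These shares sum the members and carry no test.

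The summed level of the family was 13490.0 ± 2505 in Col-0 without sucrose and 13910.0 ± 1348 with it, and it overlapped between the media in every genotype. In gnc gnl it was 10260.0 ± 1834 without sucrose and 10190.0 ± 822 with it. With sucrose the 3 gnc gnl libraries, 9534 to 11110.0, lay below the 3 Col-0 libraries, 12680.0 to 15350.0. Without sucrose the 2 genotypes overlapped. The log2 ratio of the gnc gnl and Col-0 sums was -0.40 without and -0.45 with sucrose, and on the authors' TPM scale -0.44 and -0.23. The log2 ratio of the sums with and without sucrose depended on the scale, at 0.04 in Col-0, -0.01 in gnc gnl and -0.05 in GNLox here and at 0.13, 0.33 and 0.35 on the authors' TPM scale. In GNLox the sum was 13250.0 ± 3180 without and 12770.0 ± 2008 with sucrose, and it overlapped Col-0 on both media.

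The abundant members varied together between replicates. The same order was not counted for other genes of like level, so it does not set the family apart. Of the 13 members with a mean level over 100, replicate 1 was the highest library for 12 in Col-0 without sucrose and for 13 in GNLox without sucrose. In gnc gnl without sucrose replicate 3 was the highest for 12 and replicate 1 the lowest for 11. In GNLox replicate 3 without sucrose, the library highest in ribosomal RNA, was the lowest for all 13, and replicate 2 with sucrose, which had the least ribosomal RNA, was also the lowest for all 13.

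**Figure D2:**
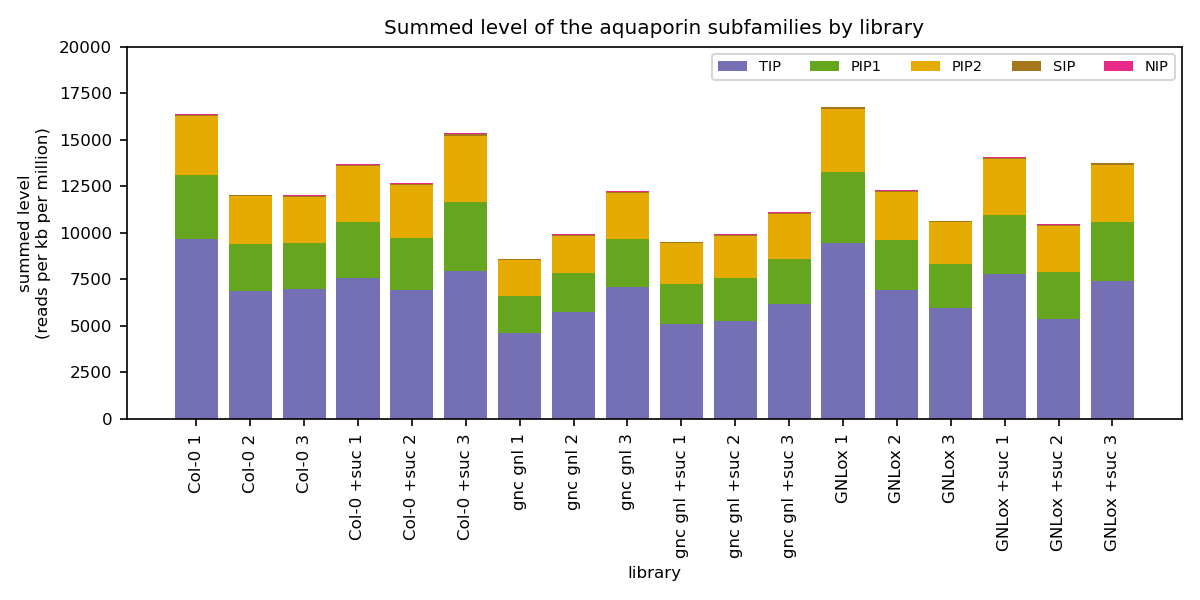
Summed level of each aquaporin subfamily (TMM-scaled RPKM, stacked) in each of the 18 libraries. The TIP part is the tallest in every bar, and the total runs from 8613 in gnc gnl replicate 1 without sucrose to 16800.0 in GNLox replicate 1 without sucrose.

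The effect of sucrose on the family was then compared within each genotype. The same test over all 18 libraries (edgeR's quasi-likelihood F test, Benjamini-Hochberg adjustment over 21903 genes, called at an adjusted p under 0.05) covered 30 members. In Col-0, 15 members were called, 11 higher and 4 lower with sucrose, where 49.8% of all tested genes were called (26.0% higher, 23.8% lower). In gnc gnl 11 were called, 7 higher and 4 lower, beside 32.2% of all genes (17.9% higher, 14.3% lower). In GNLox 17 were called, 12 higher and 5 lower, beside 54.8% (28.7% higher, 26.1% lower). Without the 3 libraries highest in ribosomal RNA, gnc gnl kept 5 of its 11 calls (1 higher, 4 lower), and GNLox had 12 calls (6 higher, 6 lower), of which 10 were among its 17. Col-0 kept 13 of its 15 (10 higher, 3 lower). The members' counts are near these backgrounds and are not a result about the family. The median log2 difference of the 30 members was 0.38 in Col-0, 0.34 in gnc gnl and 0.29 in GNLox, and that of all tested genes was 0.00, 0.00 and 0.03. Without the same 3 libraries the members' median was 0.39, 0.27 and 0.06, and with the replicate number as a block it was 0.21 in gnc gnl. In all 3 genotypes 6 members were called higher (PIP2;4, PIP2;8, TIP1;1, TIP4;1, NIP3;1 and SIP2;1) and 2 lower (TIP3;2 and SIP1;2). Another 8 members, among them the highest PIP1, PIP2, TIP and SIP genes, were called in none. The shares of all genes called in all 3 or in none were not counted, so these counts do not set the family apart.

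By subfamily, 1 of 5 PIP1 genes, 4 of 8 PIP2, 4 of 8 tested TIP, 4 of 6 tested NIP and 2 of 3 SIP genes were called in Col-0. In gnc gnl the counts were 0 PIP1, 3 PIP2, 3 TIP, 3 NIP and 2 SIP genes. In GNLox they were 1 PIP1, 6 PIP2, 4 TIP, 4 NIP and 2 SIP genes. Of all genes 49.8%, 32.2% and 54.8% were called in Col-0, gnc gnl and GNLox. The PIP calls in Col-0 and gnc gnl were all higher with sucrose, and in GNLox 1 PIP2 gene was called lower. The TIP, NIP and SIP groups each held both directions in all 3 genotypes. The calls per subfamily are few, and a difference between subfamilies was not tested. In Col-0 the median log2 difference was 0.32 for the PIP1, 0.54 for the PIP2, 0.17 for the TIP, 0.52 for the NIP and 0.25 for the SIP genes. In GNLox it was 0.16, 0.46, -0.19, 0.45 and 0.16 in the same order. The summed PIP2 level was 3140.0, 2559 and 2510.0 in Col-0 without sucrose and 2993, 2853 and 3557 with it, and its media overlapped. The summed NIP level in Col-0 was 37.0, 33.6 and 27.8 without and 40.3, 39.7 and 45.1 with sucrose, where they did not overlap in Col-0. The NIP sums of the media did not overlap in GNLox either and overlapped in gnc gnl.

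In the plasma membrane group PIP2;4, a water channel best known from roots, was the more abundant of the 2 PIP genes called higher in all 3 genotypes. PIP2;4 was at 65.7, 36.0 and 39.6 in Col-0 without sucrose and at 197, 156 and 109 with it. It was at 28.7, 31.2 and 53.3 in gnc gnl without and 87.8, 77.3 and 122 with sucrose. It was at 81.0, 49.7 and 39.4 in GNLox without and 218, 106 and 179.6 with sucrose. The media did not overlap in any genotype. The log2 difference was 1.71 ± 0.36 (SE, adjusted p = 0.00124) in Col-0, 1.34 ± 0.35 (adjusted p = 0.0102) in gnc gnl and 1.56 ± 0.36 (adjusted p = 0.00183) in GNLox. Leaving out the 3 libraries highest in ribosomal RNA ended the call in gnc gnl. Of the 7 members called higher there, only 1 kept its call in that setting.

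PIP2;8, the closest relative of PIP2;7 in coding sequence (84.2% identical bases), was a minor member that rose. PIP2;8 was at 0.814, 1.27 and 1.47 in Col-0 without sucrose and at 4.16, 4.43 and 3.20 with it. It was at 3.68, 2.06 and 1.88 in gnc gnl without and 5.93, 5.31 and 5.34 with sucrose. It was at 1.19, 1.42 and 1.82 in GNLox without and 1.93, 4.26 and 3.03 with sucrose. The media did not overlap within a genotype. On the log2 scale the difference was 1.72 ± 0.31 in Col-0 (adjusted p = 0.000413), 1.12 ± 0.29 in gnc gnl (adjusted p = 0.00965) and 1.09 ± 0.31 in GNLox (adjusted p = 0.0075). The gnc gnl call was lost without its replicate 3 on the medium without sucrose (adjusted p = 0.0514), and without the 3 libraries highest in ribosomal RNA.

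The other PIP calls were smaller. PIP2;3, a neighbour of PIP2;2 on chromosome 2 with 94.8% identical coding bases, rose by 0.88 ± 0.19 in Col-0 and 0.65 ± 0.19 in gnc gnl on the log2 scale. The gnc gnl call was lost without replicate 2 of either medium. Of the reads of these neighbours 84.7% and 84.9% were unique, so the split between them is uncertain. PIP2;6 rose in Col-0 (0.62 ± 0.16) and GNLox (0.41 ± 0.16, adjusted p = 0.0400). The GNLox call was lost in 4 of 6 omissions of 1 library, replicates 2 and 3 without sucrose and 1 and 3 with it, with an adjusted p of up to 0.155. PIP1;5 was called in Col-0 (adjusted p = 0.0434), and leaving out the same 4 replicates of Col-0 lost the call, with an adjusted p of up to 0.161. PIP1;1, PIP2;2 and PIP2;5 rose in GNLox by 0.55 ± 0.16, 0.52 ± 0.20 and 0.54 ± 0.21, the last 2 with overlapping media. The second call was lost in 4 of 6 omissions of 1 library, replicates 2 and 3 without sucrose and 1 and 3 with it (adjusted p up to 0.169). The third was lost in 3, replicates 1 and 3 without sucrose and 2 with it (adjusted p up to 0.208), and under the replicate block (adjusted p = 0.0512). PIP2;7, an abundant water channel, fell in GNLox by 0.39 ± 0.11 (adjusted p = 0.0086). Its log2 difference was 0.07 in Col-0 and 0.03 in gnc gnl, and the difference between GNLox and Col-0 did not pass (adjusted p = 0.169).

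Among the TIP genes, TIP1;1, like TIP1;2 a vacuolar water channel, was at 345, 238 and 249.7 in Col-0 without sucrose and at 548, 469 and 482 with it. It was at 203, 229.6 and 278 in gnc gnl without and 383, 357 and 437 with sucrose. It was at 389, 286 and 244 in GNLox without and 752, 516 and 655 with sucrose. No group of 1 medium overlapped the other within a genotype. The log2 difference was 0.85 ± 0.19 in Col-0 (adjusted p = 0.0021), 0.73 ± 0.19 in gnc gnl (adjusted p = 0.00997) and 1.06 ± 0.19 in GNLox (adjusted p = 0.000314).

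TIP4;1, a vacuolar channel known from roots and able to carry urea, rose from a low level. TIP4;1 was at 1.496, 1.60 and 1.17 in Col-0 without sucrose and at 5.21, 4.36 and 7.31 with it. It was at 4.70, 2.70 and 2.75 in gnc gnl without and 7.01, 9.46 and 4.76 with sucrose. It was at 0.909, 1.10 and 0.750 in GNLox without and 3.30, 4.53 and 5.09 with sucrose. In gnc gnl the lowest sucrose library exceeded the highest of the other medium only narrowly. On the log2 scale the difference was 1.99 ± 0.30 in Col-0 (adjusted p = 0.000102), 1.06 ± 0.28 in gnc gnl (adjusted p = 0.0101) and 2.20 ± 0.31 in GNLox (adjusted p = 4.24e-05). The gnc gnl call was lost in 3 of 6 omissions of 1 library, replicates 2 and 3 without sucrose and 2 with it, with an adjusted p of up to 0.0534, and without the 3 libraries highest in ribosomal RNA.

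TIP3;2, a channel of the vacuoles of seeds, fell with sucrose. TIP3;2 was at 60.3, 60.2 and 63.7 in Col-0 without sucrose and at 21.0, 20.8 and 22.1 with it. It was at 31.4, 51.6 and 48.1 in gnc gnl without and 17.4, 19.3 and 19.9 with sucrose. It was at 27.1, 39.6 and 38.8 in GNLox without and 4.34, 6.94 and 10.3 with sucrose. No libraries of the 2 media overlapped within a genotype. The log2 difference was -1.53 ± 0.24 in Col-0 (adjusted p = 0.000142), -1.21 ± 0.24 in gnc gnl (adjusted p = 0.00176) and -2.28 ± 0.25 in GNLox (adjusted p = 5.44e-06).

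The reads of this gene are shared in part. An uncharacterised long noncoding RNA gene on the opposite strand, AT1G05333, overlaps 564 of its 1603 bases, the strand used in counting is not given in the sources used here, and 60.98% of its reads were unique. Reads that cross an exon junction and map to 1 place were at 13.3, 13.2 and 13.7 CPM (reads scaled to library size) in Col-0 without sucrose and at 4.71, 4.62 and 5.53 with it. In GNLox they were 6.43, 8.75 and 7.05 without and 1.17, 1.46 and 2.20 with sucrose. In gnc gnl they were 6.84, 9.93 and 9.80 without and 3.32, 4.61 and 4.47 with sucrose. The media did not overlap in any genotype, and these reads were not tested.

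TIP3;1, the other seed TIP, was nearly absent at 0 to 2.92 in every library and was called lower in GNLox (log2 -3.34 ± 1.34, adjusted p = 0.0458) with overlapping media. That call was lost in 5 of 6 omissions of 1 library, all but replicate 1 without sucrose (adjusted p up to 0.179), with the compared groups only and with no filter on low counts. Of 13 seed storage and late embryo genes, the summed level was 24.8 in GNLox replicate 3 and 17.9 in replicate 2 without sucrose, where the gene was at 1.98 and 2.92, against 3.21 in replicate 1, where it was at 0.0842. The same sum was 30.2 in gnc gnl replicate 2 with sucrose, where it was at 2.49. Seed genes moved with TIP3;1 in these libraries, and their part in its call was not tested. Across the media the log2 difference of the same 13 genes was above 0 for 10 in Col-0, 8 in gnc gnl and 1 in GNLox. It was below 0 for 3, 5 and 12, whereas TIP3;2 fell in each genotype. TIP2;3, an ammonia-permeable vacuolar channel of roots, was at 667, 413 and 471 in Col-0 without and 210.4, 223 and 159 with sucrose. It was at 86.1, 331 and 519 in gnc gnl without and 184, 120.0 and 246 with sucrose. It was at 576, 420.1 and 367 in GNLox without and 327, 204 and 270.3 with sucrose. It fell in Col-0 (log2 -1.39 ± 0.45, adjusted p = 0.0195), a call lost without replicate 1 on the medium without sucrose or replicate 3 with it (adjusted p up to 0.0663). In the main fit it did not pass in the other genotypes. In GNLox the media did not overlap, and with the compared groups only it was called lower (log2 -0.78, adjusted p = 0.0318). Replicate 1 of gnc gnl without sucrose stood below its 2 partners, and without it the log2 difference in gnc gnl was -1.21 (adjusted p = 0.00948).

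NIP1;1, a channel for arsenite and related metalloids, rose most in Col-0 and GNLox. NIP1;1 was at 0.470, 0.770 and 0.429 in Col-0 without sucrose and at 3.57, 3.80 and 6.35 with it. It was at 0.804, 0.751 and 0.464 in GNLox without and 2.72, 3.98 and 3.77 with sucrose. It was at 5.57, 2.75 and 3.20 in gnc gnl without and 6.16, 7.78 and 3.77 with sucrose. In gnc gnl the 2 media overlapped, and without sucrose the gnc gnl libraries already lay above the Col-0 libraries of that medium. On the log2 scale the difference was 3.05 ± 0.38 in Col-0 (adjusted p = 2.61e-05), 2.33 ± 0.37 in GNLox (adjusted p = 0.000106) and 0.61 ± 0.32 in gnc gnl, which did not pass (adjusted p = 0.156). Without replicate 1 of gnc gnl on the medium without sucrose, the highest of its 3 libraries, the value was 0.98 and passed (adjusted p = 0.0376).

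Other NIP genes changed by less. NIP3;1, an arsenite-permeable channel, rose by 0.90 ± 0.17 in Col-0, 0.57 ± 0.17 in gnc gnl and 0.56 ± 0.16 in GNLox on the log2 scale. The gnc gnl call was lost without replicate 2 of either medium (adjusted p up to 0.0751). NIP5;1, the boric acid channel of root uptake, was at 10.7, 7.18 and 5.96 in Col-0 without sucrose and at 12.4, 12.2 and 11.8 with it (log2 0.61 ± 0.17, adjusted p = 0.00728). NIP6;1, a boric acid channel of shoots, was at 5.34, 6.46 and 3.45 in Col-0 without and 2.34, 2.80 and 2.51 with sucrose (log2 -0.99 ± 0.27, adjusted p = 0.00642). It fell in gnc gnl too, by 0.85 ± 0.27, a call lost without replicate 3 on the medium without sucrose or replicates 1 or 3 with it (adjusted p up to 0.112). NIP2;1, known for its induction by low oxygen in roots, rose in GNLox by 0.60 ± 0.21, but 44.5% of its reads were unique and the call was lost with unique reads (adjusted p = 0.0811) and in 3 of 6 omissions of 1 library, replicate 3 without sucrose and 1 and 3 with it (adjusted p up to 0.109). NIP1;2 fell in gnc gnl by 0.37 ± 0.09, a call lost without replicate 2 on the medium without sucrose (adjusted p = 0.0507), and in GNLox by 0.41 ± 0.09.

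Of the 3 SIP genes 1 fell and 1 rose in every genotype. SIP1;2 was at 8.77, 6.70 and 8.04 in Col-0 without sucrose and at 3.83, 4.60 and 5.95 with it. It was at 5.66, 6.55 and 7.03 in gnc gnl without and 3.56, 4.35 and 4.62 with sucrose. It was at 6.999, 6.78 and 5.36 in GNLox without and 2.47, 2.88 and 3.51 with sucrose. Its media did not overlap within a genotype, and it fell by 0.70 ± 0.18 in Col-0, 0.62 ± 0.18 in gnc gnl and 1.11 ± 0.18 in GNLox on the log2 scale. Its gnc gnl call was lost without replicate 3 on the medium without sucrose or replicate 1 with it (adjusted p up to 0.0689). SIP2;1 rose by 0.57 ± 0.12, 0.46 ± 0.12 and 0.69 ± 0.12 in the same order. Genes on the opposite strand overlap both (for the first the transcription factor gene anac088, for the second CRD1, which had 122409 reads against its 14022). In the gene reads a partner cannot be told apart because the strand setting is not given. Junction reads of SIP1;2 changed with sucrose by a log2 of -0.65 in Col-0, -0.72 in gnc gnl and -0.96 in GNLox. Those of SIP2;1 changed by 0.66, 0.46 and 0.61. The media overlapped only for SIP1;2 in Col-0, and these reads were not tested.

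**Figure D3:**
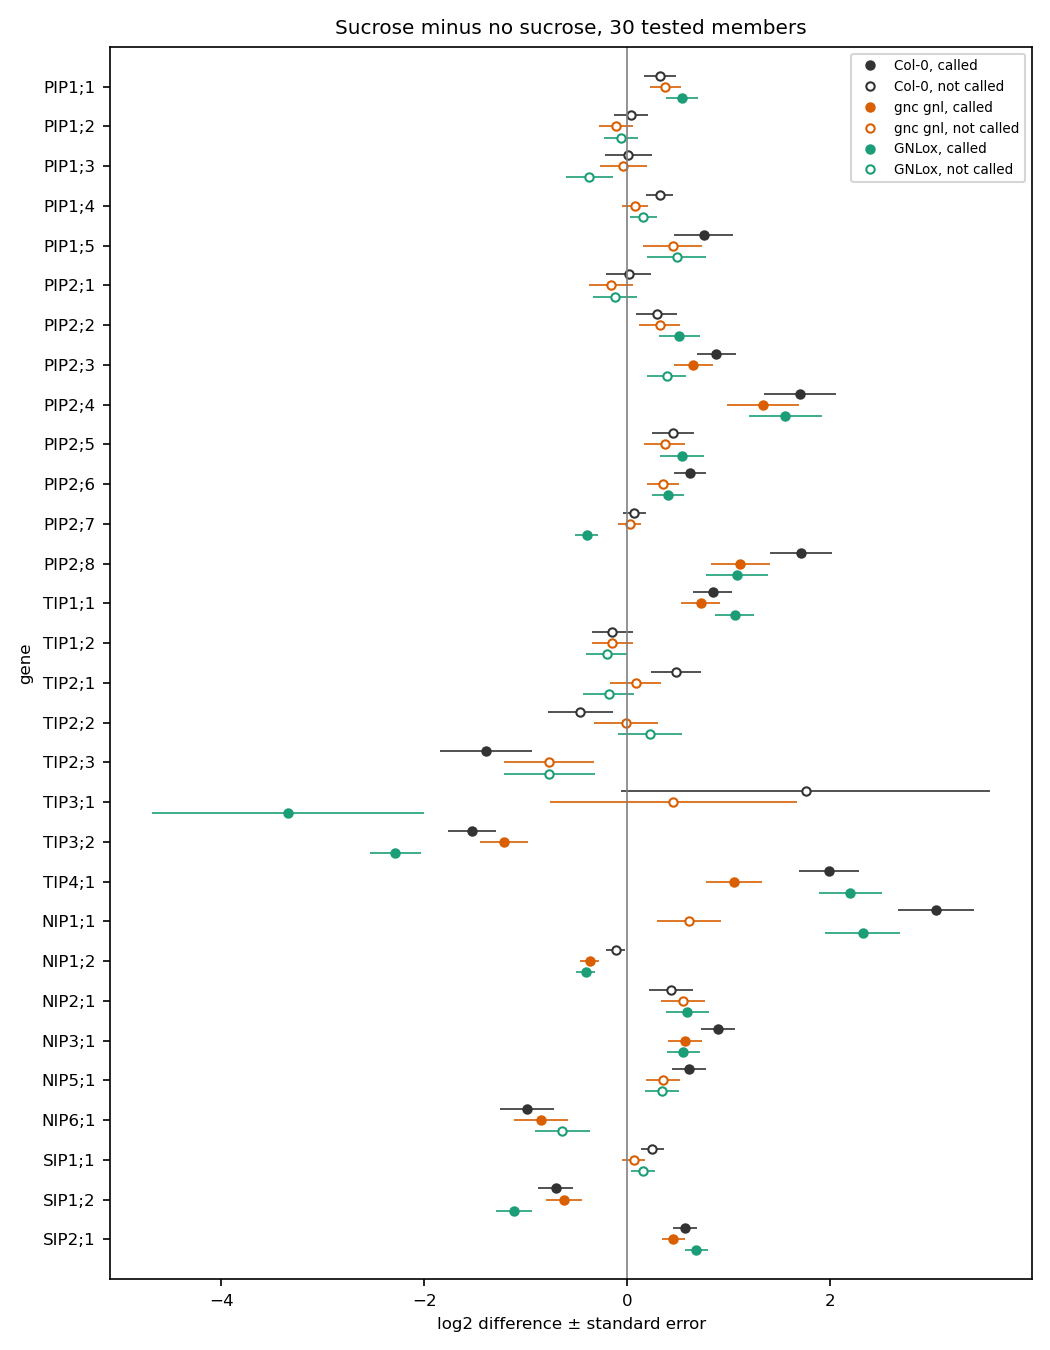
Log2 difference between sucrose and no sucrose, with its standard error, for the 30 tested members in Col-0, gnc gnl and GNLox, with called members filled. Of the members, 3 lie above 1 in all 3 genotypes and 1, the seed channel, at -1.53, -1.21 and -2.28.

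**Figure D4:**
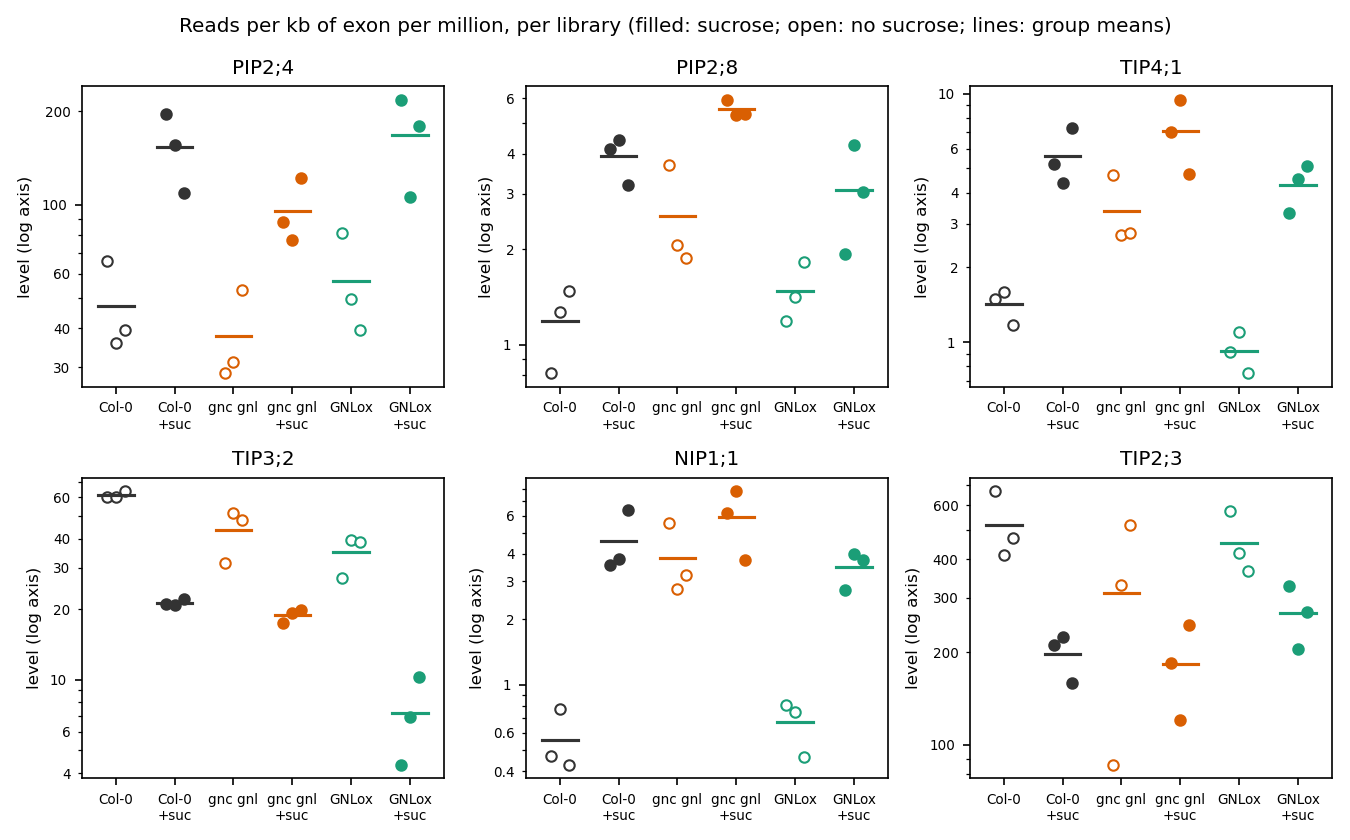
Level in each library (points, log axis, TMM-scaled RPKM) of 6 members, with group means as lines and sucrose libraries filled. NIP1;1 in gnc gnl without sucrose lies above the Col-0 and GNLox libraries of that medium.

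Root and root hair genes rose beside these members. Of 12 root markers, 10 were called higher with sucrose in Col-0, 7 in gnc gnl and 9 in GNLox, and none lower, beside 26.0%, 17.9% and 28.7% of all genes called higher. Their summed level was 154 to 242 in Col-0 without and 257 to 309 with sucrose, 152 to 184 and 204 to 224 in gnc gnl, and 172 to 281 and 220.0 to 322 in GNLox. The root hair wall genes PRP3, EXPA7, LRX1 and COBL9 together were at 0.409 to 0.985 in Col-0 without sucrose and at 18.5 to 26.0 with it. They were at 0.668 to 1.12 and 12.5 to 15.6 in gnc gnl, and at 0.0458 to 0.296 and 12.3 to 22.8 in GNLox. In GNLox without sucrose each was at 0 in at least 1 library. In bulk seedlings more cells of a type and more RNA per cell cannot be told apart, and the part of root tissue in the aquaporin changes was not tested.

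Genes of the lists around the family were called in both directions. Of 10 proton pump genes, which energise membranes, 6 were called in Col-0 (5 higher, 1 lower), 2 in gnc gnl (both higher) and 7 in GNLox (4 higher, 3 lower). These shares lie near those of all genes in Col-0 and GNLox (49.8% and 54.8%), and the share in gnc gnl lies below its 32.2%. AHA2, the main plasma membrane proton pump of roots, rose by 0.95 ± 0.17 in Col-0, 0.70 ± 0.17 in gnc gnl and 0.70 ± 0.17 in GNLox, and AHA7 by 1.89 ± 0.24, 0.85 ± 0.23 and 2.05 ± 0.24. The AHA7 call in gnc gnl was lost without replicate 2 or 3 on the medium without sucrose (adjusted p up to 0.0626). Of 10 genes known to regulate aquaporins, 8, 4 and 7 were called, with 6, 3 and 5 lower, beside 49.8%, 32.2% and 54.8% of all genes called and 23.8%, 14.3% and 26.1% called lower. SYP61, 1 of the 6 lower in Col-0 (adjusted p = 0.0464), was lost in 13 of 15 settings, including all 6 omissions of 1 library (adjusted p up to 0.140). The 2 called higher in Col-0 were SIRK1, by 0.44 (adjusted p = 0.000677), and QSK1, by 0.55 (adjusted p = 0.0115). The QSK1 call was lost without replicate 3 on the medium without sucrose (adjusted p = 0.0508). TSPO, which targets PIP2;7 for degradation, fell by 2.20 ± 0.35 in Col-0, by 1.84 ± 0.35 in gnc gnl and by 1.19 ± 0.34 in GNLox on the log2 scale. RMA1, a ubiquitin ligase linked to PIP2;1 turnover, fell by 0.87 ± 0.17, 0.73 ± 0.17 and 1.35 ± 0.17, and RAP2.4, a transcription factor, by 0.57 ± 0.09, 0.52 ± 0.09 and 0.62 ± 0.09. Of the boron exporters BOR1 rose in gnc gnl (0.60 ± 0.12) and GNLox (0.31 ± 0.12, adjusted p = 0.0391), the latter lost in all omissions of 1 library but replicate 3 with sucrose (adjusted p up to 0.102). BOR4 rose in all 3 genotypes from few reads. Col-0, gnc gnl and GNLox held 10, 10 and 14 reads per group without sucrose and 42, 65 and 80 with it. Its Col-0 call was lost without replicate 2 on the medium without sucrose or replicate 3 with it (adjusted p up to 0.0633).

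Libraries labelled gnc gnl were compared with Col-0 on each medium, without taking the loss of GNL as given. Without sucrose 1 of 30 members was called, NIP1;1, higher in gnc gnl by 2.80 ± 0.38 (adjusted p = 0.00362), beside 1.29% of all genes (0.991% higher, 0.301% lower). The adjusted p stayed between 0.00483 and 0.0410 when single libraries were left out. PIP2;8 and TIP4;1, which also rose with sucrose, had log2 differences of 1.09 (adjusted p = 0.0919) and 1.26 (adjusted p = 0.0546) that did not pass, though their libraries did not overlap with those of Col-0. DESeq2's Wald test called both, beside 1040 genes in all. Among the 3 gnc gnl libraries without sucrose, replicate 1 was the highest for these 3 genes and the lowest for the root ammonia channel of the TIP group. With sucrose no member was called by edgeR, beside 0.16% of all genes (0.0548% higher, 0.105% lower). In edgeR 8 of 30 members had an unadjusted p under 0.05, beside 3642 of all 21903 genes. DESeq2 called 2 members, beside 341 genes in all. The log2 difference was below 0 for 21 of 30 members without sucrose (median -0.26) and for 23 with it (median -0.24), and the median of all genes was -0.01 and 0.00.

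The difference in the sucrose response between gnc gnl and Col-0 was called for no member by edgeR, beside 0% of all genes. In edgeR 2 of 30 members had an unadjusted p under 0.05, beside 1656 of all 21903 genes. For NIP1;1 the difference was -2.44 ± 0.49 with an adjusted p of 0.293. DESeq2 gave an adjusted p of 0.0035 and called that member alone of the family, beside 69 genes in all. The difference for this gene thus passed in 1 of the 2 tools.

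In GNLox 5 members were called against Col-0 without sucrose, 2 higher and 3 lower, beside 13.5% of all genes (6.53% higher, 7.0% lower). PIP2;5, a drought-responsive water channel, was at 2.62, 2.79 and 3.36 in Col-0 and 1.04, 2.16 and 1.45 in GNLox without sucrose (log2 -0.92 ± 0.21, adjusted p = 0.0119). TIP3;2 was lower by 0.81 ± 0.23 and NIP6;1 by 0.96 ± 0.27. NIP5;1 was at 11.7, 12.4 and 12.8 in GNLox and higher by 0.63 ± 0.17, and NIP3;1 was higher by 0.54 ± 0.17. Leaving out 1 library lost the PIP2;5 call in 1 of 6 cases (Col-0 replicate 3, adjusted p = 0.0513). It lost the 3 NIP calls in 4 of 6 cases each, with an adjusted p of up to 0.125, 0.0940 and 0.185 for the shoot channel, the root uptake channel and the arsenite channel. None of the 5 was called when the 3 libraries highest in ribosomal RNA were left out, and the TIP3;2 call was lost in every omission of 1 library.

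With sucrose 4 members were called against Col-0, all lower in GNLox, beside 20.4% of all genes (10.2% in each direction). TIP3;2 was at 4.34, 6.94 and 10.3 in GNLox and 21.0, 20.8 and 22.1 in Col-0 (log2 -1.56 ± 0.24, adjusted p = 0.00104), and kept the call in all settings. PIP2;5 was at 1.99, 2.78 and 1.99 against 4.30, 3.88 and 3.89 (log2 -0.83 ± 0.21, adjusted p = 0.0115). This call was lost without GNLox replicate 1 (adjusted p = 0.0547). NIP1;2 was lower by 0.38 ± 0.09 and SIP1;2 by 0.70 ± 0.18, and both calls were lost with the compared groups only. The SIP call was also lost without Col-0 replicate 3 or GNLox replicate 1 (adjusted p up to 0.0760). The junction reads of the seed channel were 1.17 to 2.20 CPM in GNLox and 4.62 to 5.53 in Col-0 with sucrose.

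Of the boron exporters, BOR1, which loads boron into xylem, was at 46.5, 30.01 and 36.6 in Col-0 without sucrose and 61.5, 62.3 and 60.3 in GNLox. BOR1 was higher in GNLox by 0.70 ± 0.12 without sucrose (adjusted p = 0.00211) and 0.76 ± 0.12 with it (adjusted p = 0.00106). BOR2, an exporter acting in root growth, was higher by 0.62 ± 0.18 (adjusted p = 0.0327) and 0.96 ± 0.18 (adjusted p = 0.00268). The former call was lost without replicate 2 or 3 of Col-0 or 1 or 2 of GNLox (adjusted p up to 0.125), with the compared groups only and without the libraries highest in ribosomal RNA. NIP5;1, the uptake channel, was higher on the medium without sucrose. With sucrose its log2 difference was 0.37 (adjusted p = 0.128). Each of these genes shares its Col-0 libraries with the others.

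The sucrose response of GNLox differed from that of Col-0 for no member in edgeR, beside 1.12% of all genes (0.762% higher, 0.356% lower). In edgeR 4 of 30 members had an unadjusted p under 0.05, beside 3253 of all 21903 genes. DESeq2 called 1 member, PIP2;7, with an adjusted p of 0.0236, beside 879 genes in all. TIP3;2 had a difference of -0.76 ± 0.33 (adjusted p = 0.303).

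**Figure D5:**
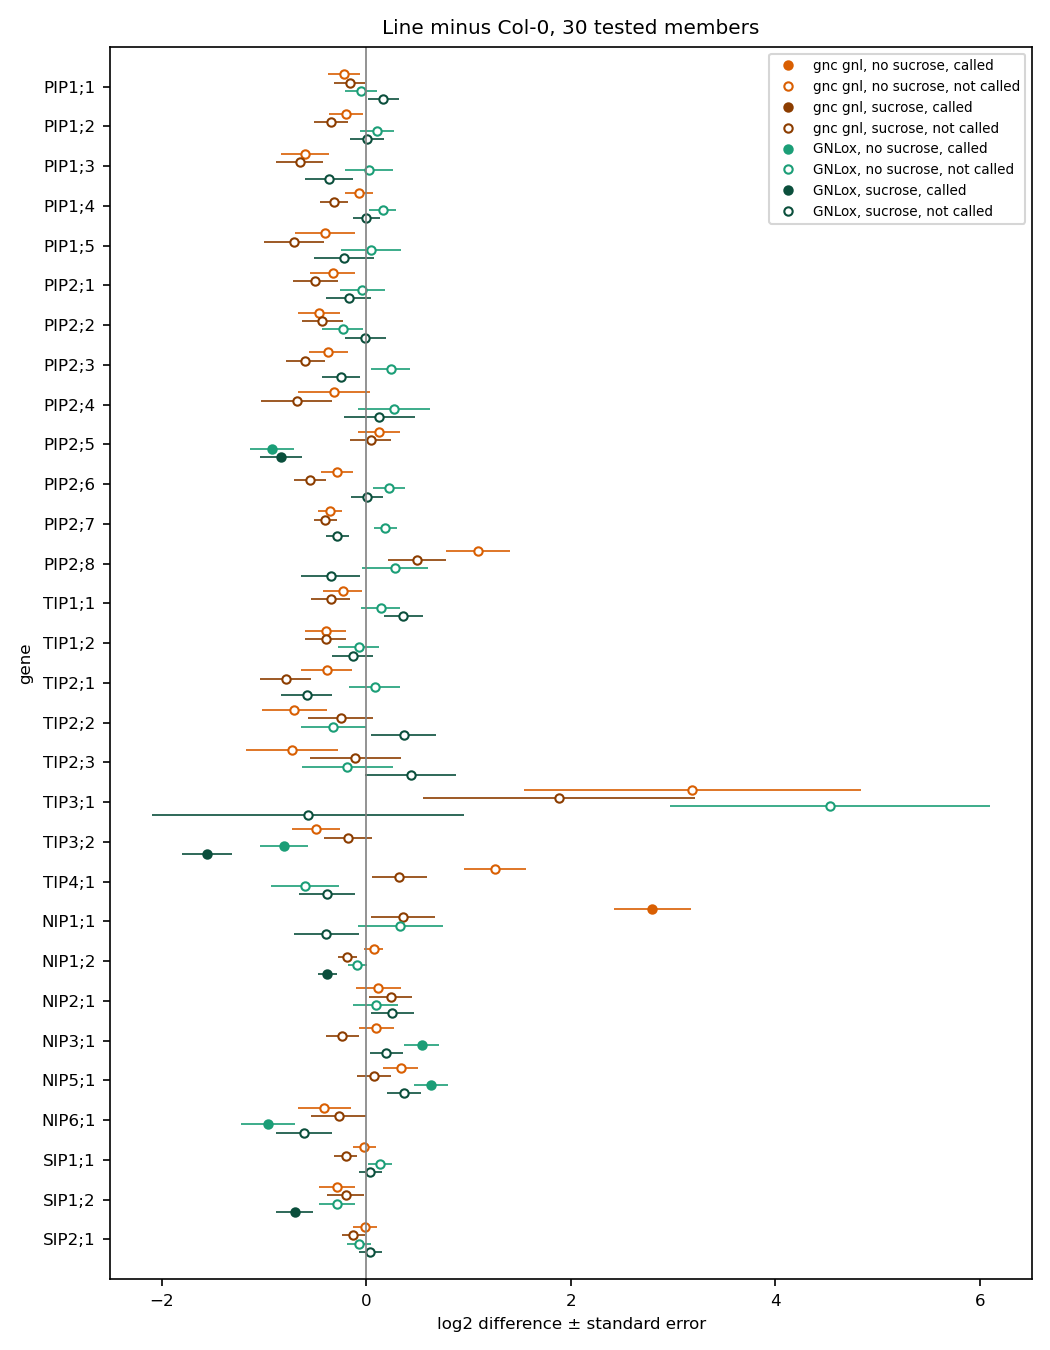
Log2 difference from Col-0, with its standard error, of the 30 tested members in gnc gnl and GNLox on each medium, with called members filled. The seed channel lies at -0.81 and -1.56 in GNLox, and the called NIP gene at 2.80 in gnc gnl without sucrose.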

How the data were processed

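RNA was sequenced from 18 libraries of 6 groups. Per the file headers, the authors deposited for each library read counts per gene (unique and total; exon, intron and exon-junction reads), RPKM and TPM. The deposited counts were raw; the deposited RPKM and TPM values were scaled per exon length and library by the authors. The build TAIR 10 is per the submitters' processing notes; no aligner, counter or strand setting is named there, and each is not given in the sources used here. Nuclear gene starts and ends were those of the RefSeq annotation for 99.95% of 32548 genes and all 35 members. Total gene counts were tested in edgeR 4.0.16 (R 4.3.3), with TMM scaling, filterByExpr, 1 fit of 6 group means and the robust quasi-likelihood F test, two-sided; standard errors are the log2 difference divided by the square root of F. DESeq2 1.42.0 was an alternative, with a replicate block, other scalings, unique or exon reads and each library left out; the closing section gives their effect. The fit was tested on simulated data. Every library's value is given for members called with a log2 size of at least 1 and a mean of at least 1 CPM, and for the highest member of each subfamily. Members and lists were chosen with earlier results of these data known. The junction-read, gene-overlap, marker-sum and replicate-order values, the members whose upstream sequence is printed, and the exon-read and low-ribosomal-RNA settings were chosen after seeing the data. Coding identity uses the best-matching pair of annotated isoforms, adopted after the longest isoforms had given a lower value for PIP2;2 and PIP2;3. Same-numbered libraries, paired by the replicate numbers in the titles, deviated together between GNLox and Col-0 without sucrose (correlations 0.126 to 0.409). Between the media in Col-0 they did so more weakly (0.04 to 0.205). Every other comparison held a correlation below 0. The block gave 5 calls for GNLox against Col-0 without sucrose, as in the main fit, and 16 beside 15 for sucrose in Col-0.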

Additional observations from a re-analysis of the deposited data

Results flagged for a closer look

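AHA4, a plasma membrane proton pump, was the only gene of the lists around the family whose sucrose response was called different in GNLox and Col-0 by edgeR (log2 -1.29 ± 0.27, adjusted p = 0.0359, over all tested genes). AHA4 was at 1.75, 1.53 and 1.73 in Col-0 without sucrose and 2.76, 2.66 and 1.71 with it, and at 2.98, 2.37 and 2.29 and then 1.39, 1.28 and 1.78 in GNLox. The call was lost in 12 of 21 settings, including the replicate block and 9 omissions of a single library.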

How the results depend on the processing

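No call of a member changed direction, and of 53 calls of members 27 held in every setting. The counts below are of members called. With DESeq2's Wald test, the count was 4 for gnc gnl against Col-0 without sucrose, 2 with sucrose, and 1 for each difference of the sucrose response. Of all genes it called 1040, 341, 69 and 879, the last 2 for the differences of gnc gnl and of GNLox from Col-0. Compared groups only gave 13 for sucrose in GNLox, of which 11 were among its 17, and 1 for GNLox against Col-0 without sucrose. Without the 3 libraries highest in ribosomal RNA (chosen after seeing the data), that comparison gave 0, and sucrose in gnc gnl gave 5. Leaving out each replicate in turn gave 7 to 14 for sucrose in gnc gnl, 1 to 4 for gnc gnl against Col-0 and 1 to 4 for GNLox against Col-0, both on the medium without sucrose. The cause was not tested. The replicate block gave 16, 11 and 16 for sucrose in Col-0, gnc gnl and GNLox; PIP1;4 gained a call in Col-0 (adjusted p = 0.0484), PIP2;5 lost its call in GNLox (adjusted p = 0.0512), and the block changed no other member's call. Of the subfamily sums and shares recomputed, 123 stayed within 1 SD and 21 moved further, 18 of them with the authors' TPM. Low-count members such as TIP3;1, NIP7;1 and NIP4;2 are limited by depth.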
